A study of Homo sapiens with 30 samples.

Results

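Expression of 7 genes of the ATP-binding cassette (ABC) transporter family was followed: ABCC1, ABCC4, ABCC5, ABCB1, ABCG1, ABCG2 and ABCA1. They were chosen by gene symbol, and all 7 were found among the 23710 gene symbols of the count tables and the 23616 of the FPKM tables. RNA-seq libraries came from 30 samples in 10 conditions with 3 replicates each, to learn how enzalutamide, an antiandrogen drug used against prostate cancer, changes gene expression. V16D is a castration-resistant derivative of the LNCaP prostate cancer cell line. MR49F is an enzalutamide-resistant LNCaP derivative, and it was maintained in 10 µM enzalutamide and then grown for 96 h without it before treatment. Each line is a single derivative, so a difference between them is a difference between these cell lines.

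In full serum, V16D and MR49F cells received vehicle or 10 µM enzalutamide for 24 h. In charcoal-stripped serum, which is depleted of steroids, MR49F cells were held for 72 h and then treated for 24 h. They received vehicle, 10 µM enzalutamide, 1 nM dihydrotestosterone (DHT, the potent natural androgen), 500 nM JQ-1 (an inhibitor of BET bromodomain proteins), or JQ-1 together with either enzalutamide or DHT. All media held 10% serum. The methods call the replicates biological and combined 2 wells for each, and the p-values measure the spread between these samples.

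ABC transporters spend ATP to move substrates across membranes. ABCC1, ABCC4 and ABCC5, also called multidrug resistance proteins, export organic anions: ABCC1 is known for glutathione conjugates and leukotrienes, ABCC4 for cyclic nucleotides, prostaglandins and urate, and ABCC5 for cyclic nucleotides. ABCB1 (P-glycoprotein) and ABCG2 (breast cancer resistance protein) pump many drugs out of cells. ABCA1 passes cholesterol and phospholipid to lipid-poor apolipoprotein A-I, and ABCG1 passes cholesterol to high-density lipoprotein. Both sterol exporters are textbook targets of the liver X receptors (LXRs), which sense oxysterols, and ABCC4 is known as a transporter of prostate epithelium.

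Gene positions are those of GENCODE release 44 on GRCh37. ABCC1 lies on chromosome 16 (16042995 to 16237114, plus strand), ABCC4 on chromosome 13 (95672089 to 95953729, minus strand) and ABCC5 on chromosome 3 (183637722 to 183735727, minus strand). ABCB1 lies on chromosome 7 (87132333 to 87342639, minus strand) and ABCG2 on chromosome 4 (89011302 to 89152780, minus strand). ABCG1 lies on chromosome 21 (43619799 to 43717354, plus strand) and ABCA1 on chromosome 9 (107543287 to 107690436, minus strand).

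Promoter windows of 300 bases, from 250 before the transcription start to 50 after it, were taken from RefSeq (GRCh38.p14), which held 10 windows for 5 of the 7 genes. The first windows listed for ABCC4 and ABCA1 are shown because these genes had the largest differences in opposite directions under DHT among the 7. Each matched its GRCh37 chromosome exactly once, the ABCC4 window at chr13:95953656-95953955 and the ABCA1 window at chr9:107690387-107690686, and both are written 5′ to 3′ on the minus strand. Capitals mark matches on either strand to the LXR element and the E-box CACGTG, which do not overlap in these windows. The LXR element is 2 repeats in the same direction with a spacer of 4 bases, AGGTNA and then NGGTCA.
ABCC4 promoter: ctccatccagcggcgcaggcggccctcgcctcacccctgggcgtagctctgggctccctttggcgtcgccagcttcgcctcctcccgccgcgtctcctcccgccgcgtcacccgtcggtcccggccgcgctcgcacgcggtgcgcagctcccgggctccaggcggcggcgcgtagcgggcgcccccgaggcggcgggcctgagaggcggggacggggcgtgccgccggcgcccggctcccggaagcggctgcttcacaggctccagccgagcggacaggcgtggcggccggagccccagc
ABCA1 promoter: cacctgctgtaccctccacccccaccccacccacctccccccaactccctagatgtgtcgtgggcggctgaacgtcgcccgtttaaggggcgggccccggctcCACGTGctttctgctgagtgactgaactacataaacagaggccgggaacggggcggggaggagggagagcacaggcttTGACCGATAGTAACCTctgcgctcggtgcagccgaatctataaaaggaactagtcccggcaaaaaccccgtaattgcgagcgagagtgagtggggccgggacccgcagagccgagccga
The ABCA1 window held 1 LXR element match, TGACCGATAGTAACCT as read on the printed strand, at bases -69 to -54 from the start, and 1 E-box at -147 to -142. The LXR letters occur in 33 of the 35116 promoter windows of the table (0.094%), and the E-box in 7.26%. The LXR pattern leaves a base of each repeat open, and ABCA1 was a known LXR target beforehand. The low share is therefore no test of this match. The ABCC4 window held no match to either. In the other windows, 2 E-boxes were found for ABCG2. A match describes letters, and no binding was measured here.

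Reads on genes numbered 13170504 to 21154962 per library in full serum but only 982130 to 1813262 in stripped serum. Reads on genes made up 73.0% to 77.8% of the reads that were on genes, ambiguous or outside features in full serum and 5.13% to 7.66% in stripped serum. For 9102 genes, counts per FPKM (fragments per kilobase of transcript, scaled to library size) were 12.2-fold fewer in stripped than in full serum (median, MR49F vehicle). The figure was 11.6-fold for ABCC1, 21.1-fold for ABCC4, 16.4-fold for ABCC5, 14.3-fold for ABCG1 and 13.5-fold for ABCA1. A ratio of stripped to full serum above 0.25 was seen for 15.1% of the 1877 genes whose exons overlap an expressed gene on the opposite strand and for 2.02% of the other 7225. No exon of the 7 genes overlaps an annotated exon on the opposite strand. How strand was handled in the counting is not given in the sources used here, and its part was not tested. FPKM values of the transporters are therefore given as well as counts. Serum and sequencing experiment cannot be told apart. The MR49F full-serum vehicle replicate 1 stood apart from its group, with a chi-square per degree of freedom of 9.27 and 10.9 against the other 2 libraries, where the other 28 pairs within groups had 1.12 to 2.66.

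All 9 markers of prostate luminal epithelium, KLK3 and HOXB13 among them, had at least 1 FPKM in every condition, with a sum of 594 to 3209 FPKM. The 3 basal markers summed to at most 0.251 FPKM and the 3 endothelial markers to at most 1.02. Of the leukocyte markers, PTPRC and CD3E reached at most 0.0601 and 0.0114 FPKM and CD68 1.51 to 5.93. Fibroblast markers summed to 0.790 to 2.5 FPKM, with COL1A1 at 0.680 to 1.65, LUM at 0.00784 to 1.44, and COL1A2 and DCN at most 0.00251 and 0.0364. In bulk RNA, fewer cells expressing a gene and less of its RNA per cell cannot be told apart.

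**Figure D1:**
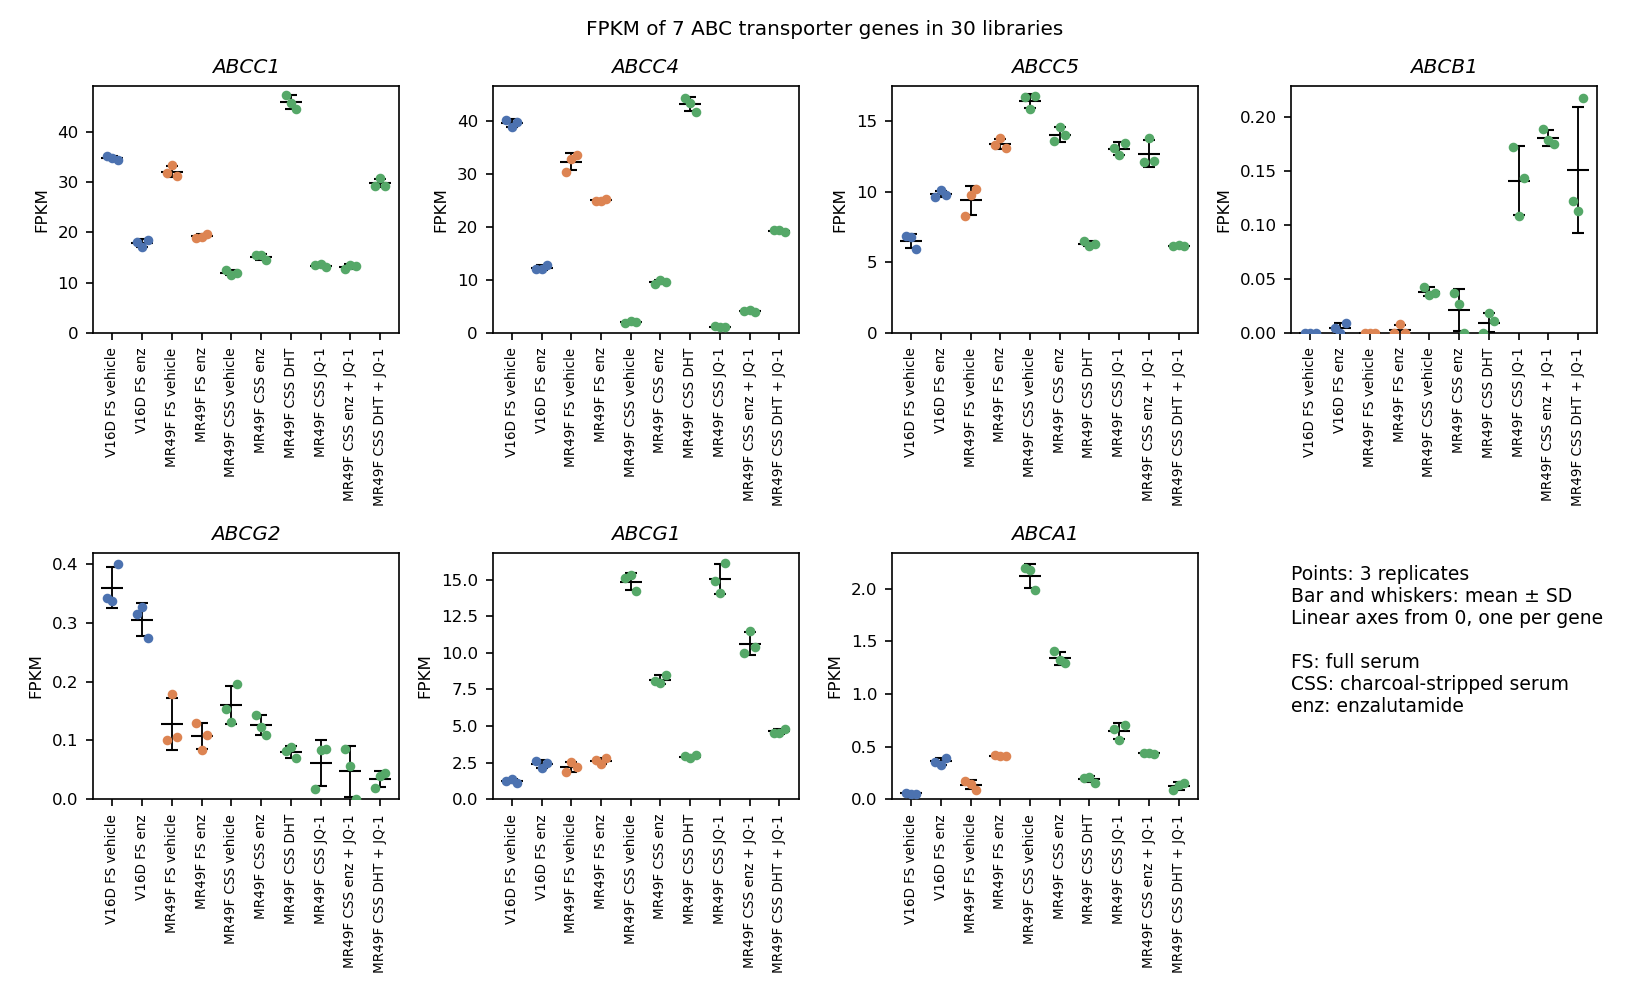
FPKM of each gene (vertical axis, linear from 0) in the 10 conditions (horizontal axis), with points for 3 replicates and bars for the mean ± SD. ABCC1 and ABCC4 were highest in DHT-treated MR49F cells (45.9 and 43.2 FPKM), ABCC5 and ABCA1 in vehicle in stripped serum (16.5 and 2.12 FPKM), and ABCB1 stayed at or under 0.218 FPKM.

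DHT in charcoal-stripped serum raised the organic anion exporters ABCC4 and ABCC1 and lowered ABCC5, ABCG1 and ABCA1. The 3 ABCC4 values were 1.94, 2.22 and 2.0 FPKM with vehicle and 44.4, 43.4 and 41.8 FPKM with DHT. The ratio of the mean FPKM was 21, and the counts, 7 to 15 per vehicle library against 270 to 297 per DHT library, gave a log2 fold change of 4.77 ± 0.17 (SE). ABCC1 read 12.4, 11.5 and 12 FPKM with vehicle and 47.3, 45.8 and 44.5 FPKM with DHT, a log2 fold change of 2.11 ± 0.10 from counts. The DHT libraries of both genes lay far above all vehicle libraries. These results come from edgeR's quasi-likelihood test with Benjamini-Hochberg adjustment over all genes tested (adjusted p = 3.29e-17 for ABCC4 and 1.37e-14 for ABCC1), and a gene is called changed at an adjusted p of at most 0.05.

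The sterol exporters moved the other way under DHT. ABCA1 read 2.19, 2.18 and 1.99 FPKM with vehicle and 0.202, 0.208 and 0.156 FPKM with DHT. Its counts were 21 to 45 reads per vehicle library and 1 to 4 per DHT library. Its log2 fold change was -3.36 ± 0.41 (adjusted p = 3.63e-07, edgeR). ABCG1 read 15.1, 15.3 and 14.2 FPKM with vehicle and 2.97, 2.80 and 3.0 FPKM with DHT. Its log2 fold change was -2.22 ± 0.23 (adjusted p = 1.86e-08, edgeR). The groups did not overlap for either gene. ABCC5, the third organic anion exporter, read 16.7, 15.9 and 16.8 FPKM with vehicle and 6.53, 6.17 and 6.28 FPKM with DHT (log2 fold change -0.98 ± 0.17 from counts, adjusted p = 7.88e-05, edgeR). All 5 genes that passed the filter on low counts were called, where 37.5% of all 11004 genes tested were called. ABCA1 reached the cutoff of that filter, 7.09 CPM (counts scaled to library size), in 3 vehicle libraries and in no DHT library. ABCG1 reached it in 3 vehicle and 2 DHT libraries, and ABCC4 in 2 vehicle and 3 DHT libraries. The count of calls thus does not stand for all 7 genes. ABCB1 and ABCG2 did not pass the filter.

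Enzalutamide in charcoal-stripped serum raised ABCC4 in MR49F cells. Its 3 values were 9.30, 10.0 and 9.71 FPKM, all above the vehicle libraries and all below the DHT libraries. The log2 fold change was 2.48 ± 0.24 (adjusted p = 9.19e-07, edgeR), a ratio of 4.71 in mean FPKM. ABCC1 read 15.5, 15.4 and 14.5 FPKM, above each vehicle library, with a log2 fold change of 0.45 ± 0.12 (adjusted p = 0.0208, edgeR). This call did not survive the Wald test of DESeq2 (adjusted p = 0.146) and was lost without vehicle replicate 1 or 3 or enzalutamide replicate 1 or 2 (adjusted p of 0.0622 to 0.119).

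ABCG1 fell to 8.05, 7.92 and 8.51 FPKM with enzalutamide, below every vehicle library, with a log2 fold change of -0.81 ± 0.17 (adjusted p = 0.00483, edgeR; 0.0785 by DESeq2). ABCA1 read 1.41, 1.32 and 1.29 FPKM and ABCC5 13.6, 14.6 and 14 FPKM, in each case below all vehicle values. Neither was called from counts (log2 fold changes of -0.27 ± 0.24 and -0.07 ± 0.14, adjusted p = 0.578 and 0.836, edgeR). Both were called lower by limma on log2(FPKM + 1), with differences of -0.42 ± 0.05 and -0.22 ± 0.05 on that scale (adjusted p = 0.000350 and 0.00846). Counts thus called 3 of the 5 genes tested, where 7.26% of 11131 genes were called, and FPKM called all 5 tested, where 38.4% of 12178 were called. ABCC4 reached the cutoff of the count filter, 6.86 CPM, in 3 enzalutamide libraries and in 2 vehicle libraries.

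DHT and enzalutamide were compared directly in the same serum, at 1 nM and 10 µM, doses that differ and are not matched. ABCC4 was 4.46 times and ABCC1 3.03 times higher in mean FPKM with DHT (log2 fold changes of 2.27 ± 0.12 and 1.65 ± 0.10, adjusted p = 2.84e-11 and 3.12e-10, edgeR). ABCA1, ABCG1 and ABCC5 were lower with DHT than with enzalutamide, with log2 fold changes of -3.10 ± 0.39, -1.42 ± 0.25 and -0.92 ± 0.18. The groups did not overlap for any of the 5 genes tested. All 5 were called, where 19.4% of 10916 genes were called. But ABCA1 reached the cutoff of the count filter in no DHT library and in 3 enzalutamide libraries. It was thus tested only through the group where it was high. ABCG1 reached that cutoff in 2 DHT and 3 enzalutamide libraries. This comparison shares its DHT and enzalutamide libraries with the comparisons against vehicle.

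**Figure D2:**
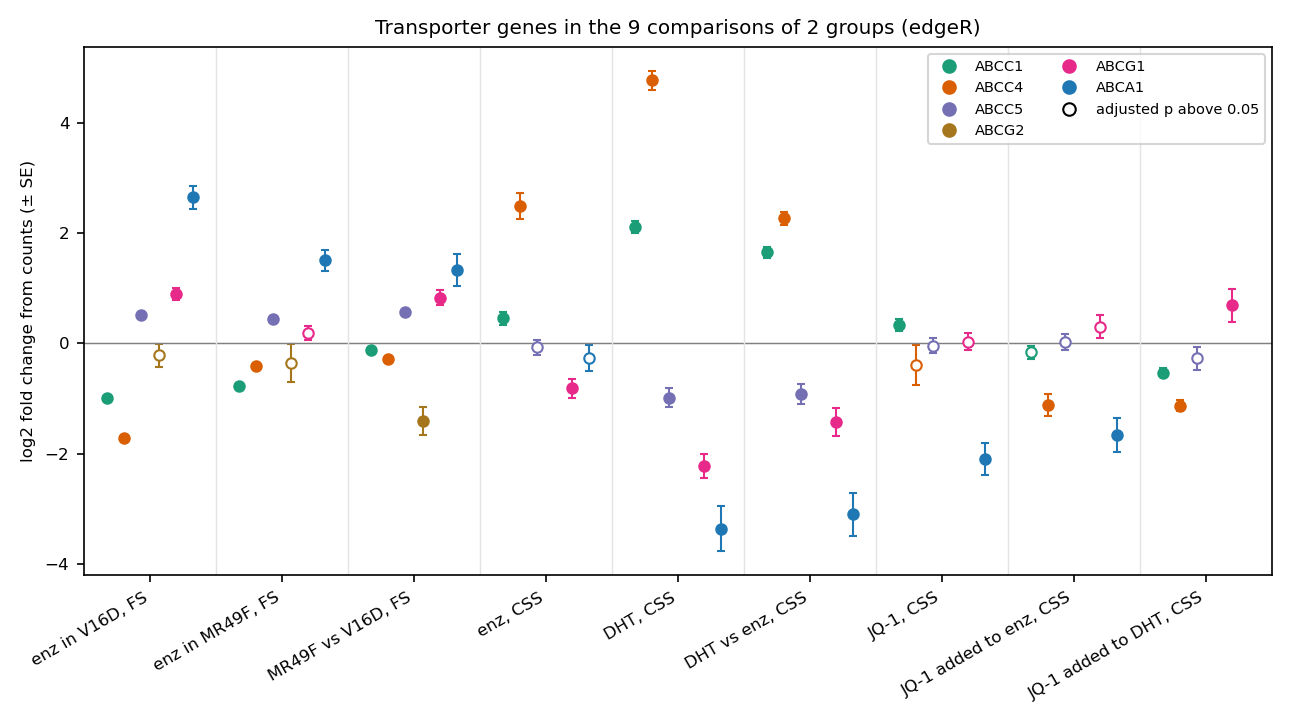
Log2 fold change from counts with its SE (vertical axis) for the transporter genes in the 9 comparisons of 2 groups (horizontal axis). Open points have an adjusted p above 0.05. ABCC4 ranged from -1.72 in V16D cells given enzalutamide to 4.77 in MR49F cells given DHT, and ABCA1 from -3.36 to 2.65.

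In full serum, enzalutamide had the opposite sign in V16D cells. ABCC4 fell from 40.3, 38.9 and 39.9 FPKM with vehicle to 12.1, 12 and 12.9 FPKM with enzalutamide, with counts of 5020 to 5257 against 1577 to 1841 per library. The log2 fold change was -1.72 ± 0.03 (adjusted p = 1.84e-288, edgeR). ABCC1 fell from 35.2, 34.8 and 34.3 FPKM to 18.1, 17.0 and 18.5 FPKM, a log2 fold change of -0.99 ± 0.03. In mean FPKM ABCC4 was 3.22 times and ABCC1 1.95 times lower with enzalutamide, and no library of one group overlapped the other.

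ABCC5, ABCG1 and ABCA1 rose in V16D cells. ABCA1 read 0.0611, 0.0524 and 0.0546 FPKM with vehicle and 0.356, 0.328 and 0.396 FPKM with enzalutamide. Its counts were 13 or 14 reads per vehicle library and 79 to 99 per enzalutamide library. Its log2 fold change was 2.65 ± 0.21 (adjusted p = 3.48e-32, edgeR). ABCG1 rose from 1.23, 1.40 and 1.15 FPKM to 2.61, 2.14 and 2.48 FPKM (log2 fold change 0.90 ± 0.12), and ABCC5 from 6.85, 6.79 and 5.94 FPKM to 9.66, 10.1 and 9.75 FPKM (0.51 ± 0.05). ABCG2 was not called (-0.22 ± 0.21, adjusted p = 0.463, edgeR). Of the 6 genes tested 5 were called, where 37.5% of 14079 genes were called.

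In MR49F cells in full serum enzalutamide lowered ABCC1 and ABCC4 and raised ABCC5 and ABCA1. ABCC1 read 31.7, 33.3 and 31.1 FPKM with vehicle and 18.9, 19.1 and 19.6 FPKM with enzalutamide (log2 fold change -0.78 ± 0.05, adjusted p = 4.01e-06, edgeR). ABCC4 read 30.5, 32.9 and 33.6 FPKM with vehicle and 24.9, 24.9 and 25.4 FPKM with enzalutamide (-0.41 ± 0.04, adjusted p = 0.000143). For both genes every enzalutamide library lay below every vehicle library.

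ABCA1 read 0.178, 0.143 and 0.0915 FPKM with vehicle and 0.417, 0.407 and 0.407 FPKM with enzalutamide, and its log2 fold change was 1.5 ± 0.19 (adjusted p = 0.000707, edgeR). ABCC5 rose from 8.26, 9.76 and 10.2 FPKM to 13.3, 13.8 and 13.1 FPKM (0.44 ± 0.06, adjusted p = 0.000864). ABCG1 overlapped between the groups, at 1.87, 2.58 and 2.22 FPKM with vehicle and 2.69, 2.41 and 2.81 FPKM with enzalutamide, and was not called (0.19 ± 0.12, adjusted p = 0.356). The 4 calls among 6 genes tested stand beside 8.48% of 13927 genes called. Without vehicle replicate 1, when 2533 genes in place of 1181 were called over all genes, ABCC1, ABCC4, ABCC5 and ABCA1 were called again, with log2 fold changes of -0.77 for ABCC1, -0.43 for ABCC4, 0.40 for ABCC5 and 1.73 for ABCA1.

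The responses of the 2 lines to enzalutamide differed for 4 of the 6 genes tested, ABCC4 with the largest difference. That difference, coded as the MR49F response minus the V16D response, was 1.29 ± 0.05 on the log2 scale (adjusted p = 6.51e-13, edgeR). For ABCA1 and ABCG1 the MR49F response was lower by that coding, at -1.15 ± 0.30 and -0.72 ± 0.17 (adjusted p = 0.0223 and 0.0129). ABCC1 differed by 0.21 ± 0.06 (adjusted p = 0.0365). ABCC5 and ABCG2 did not pass (adjusted p = 0.587 and 0.891), which does not show that they responded alike. Of all 14471 genes tested 6.95% were called. The number of calls was 1 without V16D vehicle replicate 3, 2 without V16D vehicle replicate 2 and 3 or 4 without any other library. The ABCC4 difference was called in each case. That of ABCC1 was lost in 9 of the 12 cases (adjusted p of 0.0503 to 0.136), and that of ABCG1 without MR49F vehicle replicate 2 or V16D vehicle replicate 3 (0.0548 and 0.0540). Without MR49F vehicle replicate 1 the ABCA1 difference was -0.92 (adjusted p = 0.0539), and its call was also lost without V16D vehicle replicate 2 or 3 (adjusted p = 0.0760 and 0.0700).

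With vehicle in full serum, MR49F cells held more ABCA1, ABCG1 and ABCC5 RNA than V16D cells and less ABCG2 and ABCC4. The log2 fold changes, MR49F over V16D, were 1.32 ± 0.29 for ABCA1, 0.83 ± 0.14 for ABCG1 and 0.56 ± 0.06 for ABCC5 (adjusted p = 0.00185, 0.000252 and 9.03e-06, edgeR). ABCG2 was at -1.40 ± 0.26 (adjusted p = 0.000531), from 31 to 39 reads per V16D library against 8 to 19 per MR49F library, 1 of which reached the cutoff of the filter. ABCC4 was at -0.28 ± 0.04 (adjusted p = 0.000131). ABCC1 was at -0.12 ± 0.05 (adjusted p = 0.0417), a call lost under 4 of the other count settings (adjusted p of 0.0507 to 0.101) and without any single vehicle library other than MR49F replicate 1 (0.0526 to 0.190). All 6 genes tested were called, where 63.7% of 14013 genes were called. Without MR49F vehicle replicate 1 all 6 were still called, with ABCA1 at 1.10 and ABCG2 at -1.25.

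For MR49F cells the enzalutamide response also differed between sera. Coded as the response in stripped serum minus that in full serum, the difference was 2.96 ± 0.21 for ABCC4 and 1.27 ± 0.11 for ABCC1 on the log2 scale (adjusted p = 5.59e-10 and 2.91e-08, edgeR). ABCC4 and ABCC1 were thus higher with enzalutamide in stripped serum and lower with it in full serum. ABCA1, ABCG1 and ABCC5 differed by -1.73 ± 0.32, -0.96 ± 0.21 and -0.46 ± 0.14 (adjusted p = 0.000714, 0.00363 and 0.0357). All 5 genes tested were called, where 11.4% of 14178 were called. The ABCC5 difference lost its call without stripped-serum vehicle replicate 1 or 2 or enzalutamide replicate 2 or 3 (adjusted p of 0.0639 to 0.129). The 2 sera were run as separate experiments with different counting yields, so this difference and the experiment cannot be told apart.

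KLK3, the androgen-responsive gene that encodes prostate-specific antigen, is given for scale. Its mean was 283 FPKM with vehicle, 800 with enzalutamide and 1258 with DHT in stripped serum, ratios of 2.83 and 4.45 where ABCC4 had 4.71 and 21. In full serum enzalutamide took KLK3 from 509 to 132 FPKM in V16D and from 971 to 941 FPKM in MR49F.

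JQ-1 alone lowered the sterol exporter ABCA1 in MR49F cells in stripped serum. Its values were 0.667, 0.560 and 0.707 FPKM, below all 3 vehicle libraries, and 8 to 11 reads against 21 to 45. It reached the cutoff of the count filter in 1 of 3 JQ-1 libraries. The log2 fold change was -2.09 ± 0.29 (adjusted p = 7.53e-08, edgeR). The other sterol exporter, ABCG1, read 14.9, 14.1 and 16.1 FPKM, overlapping the vehicle libraries, and was not called (0.03 ± 0.15, adjusted p = 0.902). ABCC1 read 13.4, 13.6 and 13.1 FPKM and was called higher (0.33 ± 0.10, adjusted p = 0.00781; 0.0595 by DESeq2).

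ABCC4 read 1.31, 1.15 and 1.10 FPKM with JQ-1, below every vehicle library, but each JQ-1 library held only 10 reads and the count test made no call (-0.39 ± 0.36, adjusted p = 0.393, edgeR). By limma on log2(FPKM + 1) ABCC4 differed by -0.48 ± 0.05 and ABCC5 by -0.31 ± 0.04 (adjusted p = 9.24e-05 and 0.000267). Counts called 2 of 5 genes tested, where 46.6% of 11332 genes were called, and FPKM 4 of 5, where 74.7% of 12203 were called. These shares are near those over all genes.

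Added to enzalutamide, JQ-1 lowered ABCC4 to 4.20, 4.35 and 3.86 FPKM, under all enzalutamide libraries and above all vehicle libraries. The log2 fold change against enzalutamide was -1.12 ± 0.20 (adjusted p = 6.37e-05, edgeR). ABCA1 fell to 0.442, 0.439 and 0.432 FPKM (-1.66 ± 0.31, adjusted p = 8.01e-05), at 7 or 8 reads per library, all under the cutoff of the filter. ABCG1 read 10.0, 11.5 and 10.4 FPKM, above the enzalutamide libraries, a difference called by limma on log2(FPKM + 1) (0.34 ± 0.06, adjusted p = 0.000703) but not from counts (0.30 ± 0.21, adjusted p = 0.259, edgeR). Counts called 2 of 5 genes, where 45.1% of 10863 genes were called.

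Added to DHT, JQ-1 lowered ABCC4 to 19.4, 19.5 and 19.1 FPKM and ABCC1 to 29.3, 30.7 and 29.3 FPKM. The log2 fold changes against DHT were -1.13 ± 0.10 and -0.53 ± 0.08 (adjusted p = 4.36e-12 and 7.64e-07, edgeR). Both genes stayed above every vehicle library. ABCG1 read 4.55, 4.54 and 4.82 FPKM, above the DHT libraries and far below vehicle, with a log2 fold change of 0.69 ± 0.30 (adjusted p = 0.0473). That call was lost by DESeq2 (adjusted p = 0.224) and without DHT replicate 1 or 2 or DHT with JQ-1 replicate 1 or 3 (0.101 to 0.177), while limma on log2(FPKM + 1) gave 0.52 ± 0.04 (adjusted p = 1.23e-05). ABCC5 was not called (-0.27 ± 0.21, adjusted p = 0.281), and ABCA1, at 1 to 4 reads per library in both groups, was not tested. Of the 4 genes tested 3 were called, where 54.7% of 10779 genes were called. ABCG1 reached the cutoff of the filter in 3 libraries of DHT with JQ-1 and in 2 DHT libraries.

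Whether JQ-1 changed the responses themselves was tested by interaction terms, coded as the ligand response with JQ-1 minus that without it. For DHT the ABCC1 response was smaller with JQ-1, by -0.87 ± 0.13 on the log2 scale (adjusted p = 2.05e-06, edgeR). ABCC1 was the single call among 5 genes tested, where 12.3% of 11572 genes were called. The ABCC4 term was -0.74 ± 0.36 and the ABCA1 term 1.74 ± 0.81 (adjusted p = 0.198 and 0.166). By limma on log2(FPKM + 1) all 5 genes were called, where 47.7% of 12469 were called, with ABCC4 at -0.64 ± 0.07 and ABCA1 at 0.84 ± 0.06. With a pseudocount of 0.1 the ABCC4 term was -0.41. ABCA1 was at 0.189 FPKM with DHT and 0.125 with DHT and JQ-1, far under a pseudocount of 1, at 1 to 4 reads per library. It reached 1 FPKM in the vehicle group alone. The ABCC5 term changed sign, from -0.24 ± 0.25 from counts to 0.28 ± 0.05 on log2(FPKM + 1).

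For enzalutamide none of 5 genes was called from counts, where 0.895% of 11625 genes were called. The ABCC1 term was -0.49 ± 0.15 (adjusted p = 0.118, edgeR) and passed without enzalutamide replicate 3 (-0.55, adjusted p = 0.0360). DESeq2 gave an adjusted p for ABCC1 and ABCC5 alone and called neither, and 1 of the 5 genes had an unadjusted p under 0.05 by edgeR. By limma on log2(FPKM + 1) 4 of 5 were called, where 18.5% of 12454 genes were called, with ABCC4 at -0.57 ± 0.08 (adjusted p = 0.000478). With a pseudocount of 0.1 the ABCC4 term was -0.46.

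The drug pumps ABCB1 and ABCG2 reached at most 0.218 and 0.399 FPKM in any library. ABCB1 had 13 reads over all 30 libraries and none in 21 of them, where a count of 0 allows up to 0.142 to 0.228 CPM in full serum and 1.65 to 3.05 in stripped serum (3 counts, counting error only). In stripped serum the 9 libraries with JQ-1 held 9 ABCB1 reads and 0.108 to 0.218 FPKM, and the 9 without JQ-1 held 2 reads and 0 to 0.0425 FPKM. Every JQ-1 library was thus above every library without it. In full serum ABCB1 was listed at 0 FPKM in 9 of 12 libraries. ABCB1 passed the count filter in no comparison, and limma on log2(FPKM + 1) without a filter gave differences of 0.14 ± 0.03 for JQ-1, 0.21 ± 0.02 for JQ-1 added to enzalutamide and 0.19 ± 0.04 for JQ-1 added to DHT (adjusted p = 0.00647, 0.000679 and 0.00898). In the counts each stripped-serum library held at most 3 ABCB1 reads, and no fold is given.

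ABCG2 had 268 reads in the 12 full-serum libraries and 7 in the 18 stripped-serum libraries, 12 of which held none. It read 0.342, 0.336 and 0.399 FPKM in V16D with vehicle and 0.100, 0.179 and 0.105 FPKM in MR49F with vehicle, without overlap. In stripped serum its FPKM values lay between 0 and 0.195. From counts, enzalutamide against vehicle gave no call for ABCG2 in either line in full serum. In stripped serum ABCG2 did not pass the count filter. There, limma on log2(FPKM + 1) without a filter gave -0.10 ± 0.03 for DHT and -0.13 ± 0.04 for JQ-1 (adjusted p = 0.0236 and 0.0291).

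Each gene's level was ordered over the 10 conditions by mean FPKM, which scales by length. ABCC4 spanned a ratio of 36.4 between its highest mean (DHT, 43.2 ± 1.32, SD, n = 3) and lowest (JQ-1, 1.19 ± 0.11), and all neighbours in its order were apart, no library of a condition overlapping the next. ABCC1 spanned 3.84, and only JQ-1 and enzalutamide with JQ-1 overlapped, at 13.4 ± 0.25 and 13.1 ± 0.49 FPKM. ABCA1 spanned 37.8, from 2.12 ± 0.11 with vehicle in stripped serum to 0.0560 ± 0.0045 in V16D with vehicle. That span crosses cell line, serum and experiment, and was 16.95 within stripped serum and 7.322 within full serum. ABCG1 spanned 11.9 across the same divide, 5.143 within stripped serum and 2.093 within full serum. Its 2 highest conditions, JQ-1 at 15 ± 0.99 and vehicle at 14.9 ± 0.56 in stripped serum, overlapped. ABCC5 spanned 2.67, with 6 of its 9 neighbouring pairs overlapping.

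Over the 10 condition means of log2(FPKM + 1), 8 of them from MR49F and 2 from V16D cells, Pearson's r was 0.889 between ABCC1 and ABCC4 and 0.747 between ABCG1 and ABCA1. Across the 2 sets r was negative, from -0.926 between ABCC4 and ABCG1 to -0.704 between ABCC4 and ABCA1. ABCC5 had r of -0.902 with ABCC1 and 0.815 with ABCA1. Among 13706 genes of at least 1 FPKM in a condition, the 2 most like each gene by r over the 10 conditions were named. They were DNAJC3 (0.981) and SMPD2 (0.979) for ABCC1, B4GALT1 (0.98) and HERPUD1 (0.975) for ABCC4, and MXRA8 (0.976) and CEMP1 (0.974) for ABCC5. For ABCG1 they were ZNF641 (0.99) and RIMS3 (0.989), and for ABCA1 SLC44A1 (0.992) and LINGO3 (0.988). SLC44A1, a choline transporter, read 151 FPKM with vehicle, 95 with enzalutamide and 23.0 with DHT in stripped serum. These genes were chosen for likeness over the same conditions, so their shared pattern is no separate result. The conditions also mix cell lines and sera, and both enter r.

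The FPKM tables list RefSeq transcripts separately. ABCC4 was nearly all NM_005845, at 42.6 of 43.2 FPKM with DHT, and NM_001105515 held 0.598. ABCC5 was divided between NM_005688 and NM_001023587, at 8.43 and 8.04 FPKM with vehicle in stripped serum. ABCG1 was divided over 6 transcripts whose replicates spread widely although the gene's sum did not. NM_016818 was at 5.44 FPKM with vehicle and 8.44 with JQ-1 in stripped serum, NM_004915 at 5.17 and 4.71, and NM_207629 at 3.74 and 1.00. The 3 vehicle libraries gave NM_207629 values of 4.38, 5.13 and 1.70 FPKM. Assignment of 50-base single reads among overlapping transcripts is an estimate, and no test was made on it.

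**Figure D3:**
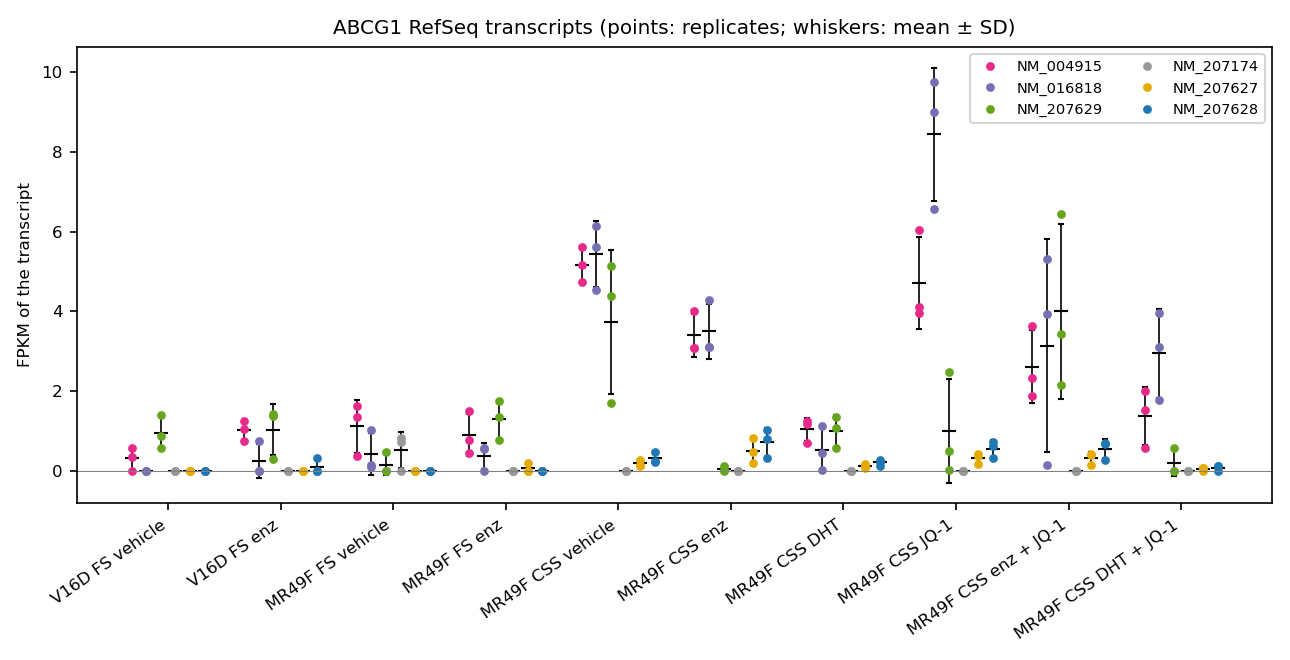
FPKM of the 6 RefSeq transcripts of ABCG1 (vertical axis) in the 10 conditions (horizontal axis), with points for replicates and bars for the mean ± SD. NM_004915 and NM_016818 held most of the gene's signal in vehicle and JQ-1 in stripped serum, and the 3 vehicle libraries in stripped serum gave NM_207629 values from 1.70 to 5.13 FPKM.

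The other 41 genes of the ABC family, grouped here as other ABC transporters although not all encode transporters, were all in the tables. DHT raised 4 and lowered 5 of the 20 tested, with a median log2 fold change of -0.12 beside -0.01 over all genes tested, of which 37.5% were called. ABCA12, a lipid transporter known from skin, fell by 1.96 on the log2 scale, from 78.2 to 19.9 CPM, and ABCB6, a porphyrin transporter, rose by 0.96 ± 0.14. For ABCC6 counts gave 1.81 ± 0.35 and log2(FPKM + 1) gave -0.82, so no direction is given for this gene. It has near-identical pseudogene copies, and the cause of the difference was not tested. Enzalutamide in stripped serum raised 1 and lowered 1 of 19 tested, beside 7.26% of all genes called, and the raised gene was ABCE1 (0.46 ± 0.13), a ribosome recycling factor.

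JQ-1 alone raised 10 and lowered 6 of 19 other ABC transporters, with a median log2 fold change of 0.38, where 46.6% of all genes were called and the median over them was -0.0029. ABCA12 fell by 2.70 ± 0.18 on the log2 scale, and ABCA5 and ABCA7, lipid transporters of the same subfamily as ABCA1, rose by 1.58 ± 0.19 and 1.30 ± 0.13. In full serum enzalutamide raised 8 and lowered 2 of 25 in V16D cells (37.5% of all genes were called), with ABCA12 at 1.92 ± 0.13. In MR49F cells it raised 1 of 25 and lowered none (8.48% of all genes), again ABCA12 (0.84 ± 0.06). MR49F cells with vehicle held more of 10 and less of 4 of 24 than V16D cells (63.7% of all genes), with ABCA12 at 3.28 ± 0.12. JQ-1 raised 8 and lowered 5 of 19 when added to enzalutamide (45.1% of all genes) and raised 6 and lowered 6 of 20 when added to DHT (54.7%).

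**Figure D4:**
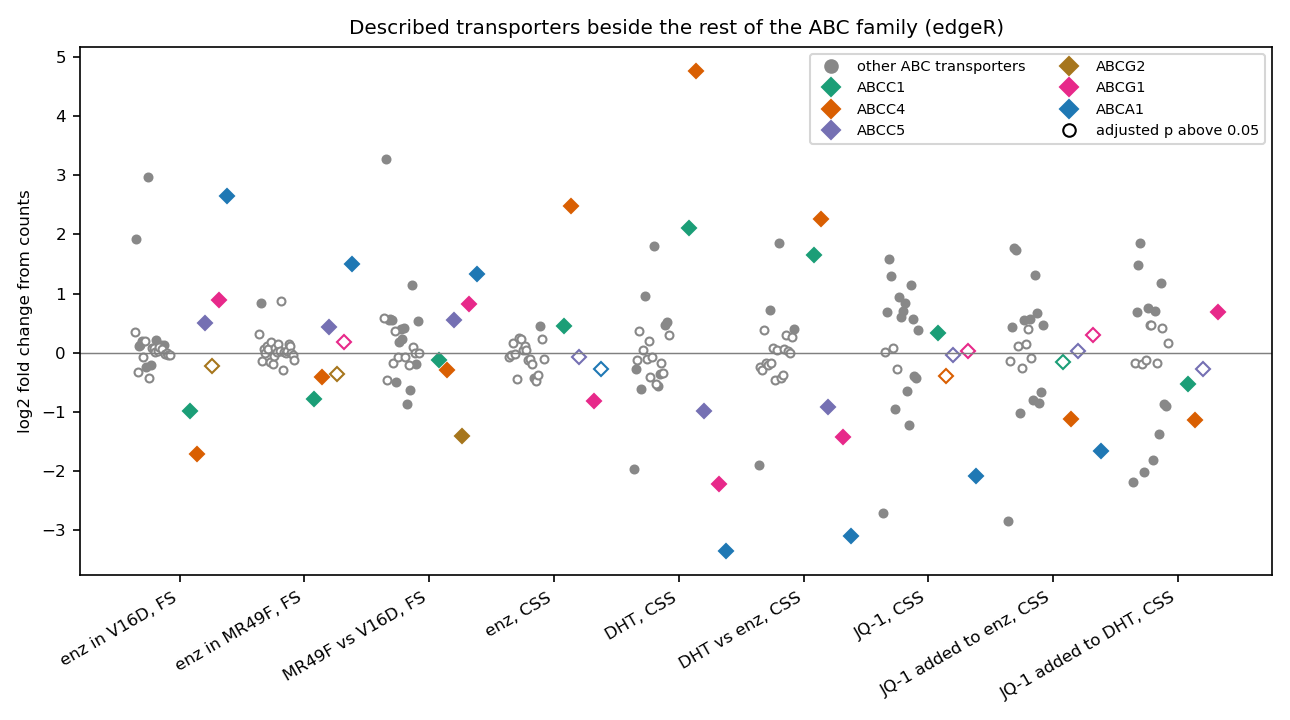
Log2 fold changes from counts (vertical axis) of the described transporters (diamonds) and the other ABC transporters tested (grey circles) in the 9 comparisons of 2 groups (horizontal axis). Open symbols have an adjusted p above 0.05. ABCC4 lay above all other ABC transporters tested under DHT (4.77) and enzalutamide in stripped serum (2.48), and ABCA1 lay below them under DHT (-3.36). Under DHT, ABCA1 was tested only through its vehicle libraries, with 1 to 4 reads per DHT library.

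Of 22 genes of sterol handling, DHT raised 4 and lowered 5 of 15 tested, where 37.5% of all genes were called. SREBF2, the regulator of sterol synthesis genes, rose by 0.82 ± 0.10 on the log2 scale, and NPC1, which moves cholesterol out of lysosomes, fell by 1.12. In V16D cells enzalutamide raised 2 and lowered 7 of 17 (37.5% of all genes), and SOAT1, which encodes a cholesterol esterifying enzyme, was at -0.53 ± 0.04. JQ-1 alone raised 5 and lowered 6 of 17 (46.6% of all genes), with SREBF1 at 1.15 ± 0.07. Enzalutamide in stripped serum raised 1 and lowered 2 of 15 (7.26% of all genes), with NPC1 at -0.53 ± 0.11.

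Of 17 genes of glutathione conjugation and xenobiotic control, DHT raised 5 and lowered 3 of 13, where 37.5% of all genes were called. The glutathione reductase gene GSR rose by 1.31 ± 0.10 and GCLC, which makes the catalytic subunit of glutamate-cysteine ligase, was at -2.16 ± 0.18. GCLC was the single call among 13 for enzalutamide in stripped serum (7.26% of all genes), at -0.95 ± 0.14 (adjusted p = 0.000134, edgeR). In MR49F cells in full serum GCLC rose by 0.41 ± 0.06. JQ-1 alone raised 3 and lowered 4 of 13 (46.6% of all genes), with the aryl hydrocarbon receptor gene AHR at 1.28 ± 0.23. Of 5 membrane scaffold genes, 4 were tested. JQ-1 raised RDX and SLC9A3R1 by 0.63 ± 0.08 and 0.60 ± 0.08 and lowered MSN (-0.51 ± 0.19), where 46.6% of all genes were called. DHT raised EZR by 0.38 ± 0.13 and lowered RDX (-0.32 ± 0.10), where 37.5% were called. MSN under JQ-1 and EZR under DHT were named after their values were seen.

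**Figure D5:**
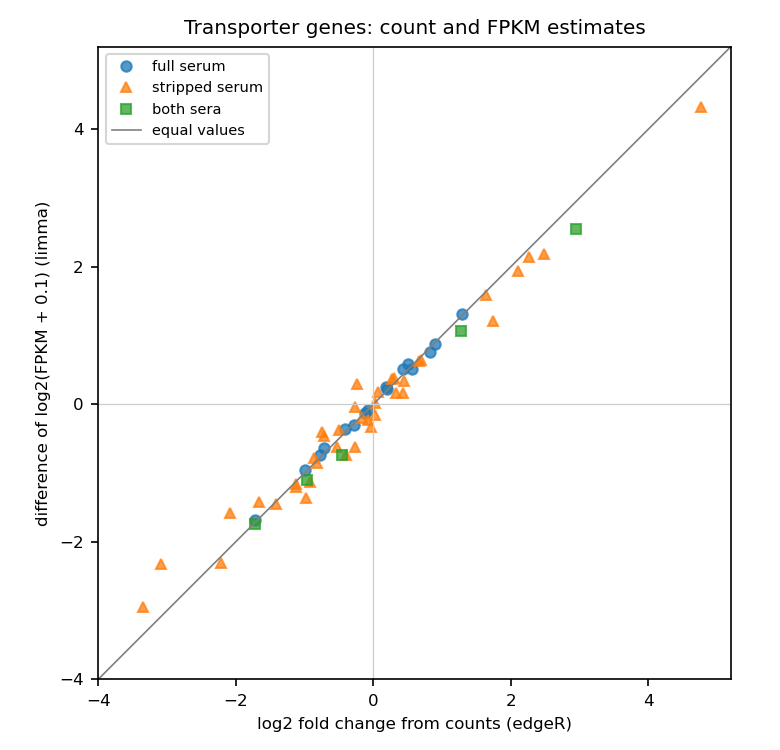
Log2 fold change from counts (horizontal axis, edgeR) against the difference of log2(FPKM + 0.1) (vertical axis, limma) for 60 pairs of a transporter gene and a comparison, by serum. The grey line marks equal values, and 58 of the 60 pairs had the same sign.

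Counts and FPKM gave the same sign for 58 of 60 pairs of a gene and a comparison in which both were tested. The 2 exceptions were ABCC5 for JQ-1 added to enzalutamide (0.02 from counts and -0.15 from log2(FPKM + 0.1)) and for the DHT by JQ-1 interaction (-0.24 and 0.30). The smaller DHT effect of ABCA1 on log2(FPKM + 1), -1.39 ± 0.05 against -3.36 from counts, comes with a pseudocount above its DHT level of 0.189 FPKM.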

How the data were processed

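Gene counts (HTSeq) and FPKM values (Cufflinks 2.1.1) were deposited by the authors for 30 poly(A), strand-specific libraries of single-end 50-base reads aligned with TopHat2 2.0.9 to hg19. The deposited counts are raw reads per gene, and the deposited FPKM values, listed per transcript, were summed per gene symbol. HTSeq summary rows were left out of library sizes. Groups came from the sample labels. The 13 comparisons, 4 of them interactions, were tested on counts with edgeR 4.0.16 (R 4.3.3): TMM scaling, filterByExpr defaults and the quasi-likelihood test, with Benjamini-Hochberg adjustment over all genes tested and calls at an adjusted p of at most 0.05. Alternatives were limma 3.58.1 on log2(FPKM + 1), keeping genes that reached 1 FPKM in 3 samples, a pseudocount of 0.1, no filter, at least 10 counts in every sample, DESeq2 1.42.0 size factors, the DESeq2 Wald test, one fit over all groups, a replicate block and leaving out each library. A log2 difference between 2 groups with a pseudocount understates the change of low genes. An interaction term with a pseudocount can come out smaller or larger. Scripts were tested on simulated counts.

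Named genes were the 7 transporters, KLK3, and up to 3 genes per list and comparison, those called without replicate overlap and at least 5 CPM in the higher group, by size of change. For each transporter of at least 1 FPKM in a condition, the 2 genes most alike in pattern were also named. The members and lists were chosen with earlier results of these data known. Counts of 0 and their limits cover counting error only. Some genes that this rule selects and some motifs searched are not reported here.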

Additional observations from a re-analysis of the deposited data

Results flagged for a closer look

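A response that differed between 2 settings by its own interaction test (edgeR's quasi-likelihood test with Benjamini-Hochberg adjustment) was found for 10 pairs of a gene and a comparison. Between the cell lines in full serum, the MR49F response to enzalutamide minus the V16D response was 0.21 for ABCC1, 1.29 for ABCC4, -0.72 for ABCG1 and -1.15 for ABCA1 on the log2 scale.

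Between sera, the MR49F response to enzalutamide in stripped serum minus that in full serum was 1.27 for ABCC1, 2.96 for ABCC4, -0.46 for ABCC5, -0.96 for ABCG1 and -1.73 for ABCA1. The serum and the sequencing experiment cannot be told apart. The DHT response of ABCC1 with JQ-1 minus that without JQ-1 was -0.87.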

How the results depend on the processing

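Over 68 pairs of a transporter gene and a comparison, 1106 alternative values were computed. Of these, 1000 kept direction and side of the threshold, 48 lost a call, 39 gained one and 19 changed sign. The number of genes called changed from 6 to 3 for MR49F against V16D by limma with either pseudocount. For the cell line interaction it changed from 4 to 2 by limma in each form. In both comparisons limma with its filter of 1 FPKM tested only 4 genes, where counts tested 6. For enzalutamide in stripped serum the number of genes called changed from 3 to 1 by DESeq2 and to 5 by limma in each form. With at least 10 counts in every sample, where fewer genes are tested, it changed from 5 to 2 for DHT, from 5 to 3 for DHT against enzalutamide, and from 2 to 1 for JQ-1 and for JQ-1 added to enzalutamide. For JQ-1 it was 1 by DESeq2, 4 by limma with either pseudocount and 6 without a filter. For JQ-1 added to enzalutamide limma gave 4, or 5 without a filter, and for JQ-1 added to DHT 5 without a filter. For the JQ-1 by enzalutamide interaction limma gave 4, or 3 with the smaller pseudocount, against 0 from counts, and for the JQ-1 by DHT interaction 5 in each form against 1. The cause was not tested.

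Leaving out 1 library gave 5 to 6 calls for MR49F against V16D, 1 to 4 for the cell line interaction, 2 to 3 for enzalutamide in stripped serum and for JQ-1 added to DHT, 0 to 1 for the JQ-1 by enzalutamide interaction and 4 to 5 for the serum interaction. The other 7 comparisons had the same number of calls throughout.

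Sign changes concerned values that were not called from counts. ABCG2 in the cell line interaction was 0.033 by limma without a filter, and -0.32 to 0.23 with a library left out. ABCC5 for JQ-1 added to enzalutamide was -0.14 by limma with a pseudocount of 1, with or without a filter, and -0.15 with 0.1. ABCC5 in the JQ-1 by DHT interaction was 0.28 and 0.30 on the same scales. With a library left out, ABCC5 was -0.14 to 0.0073 for enzalutamide in stripped serum, -0.10 to 0.064 for JQ-1, -0.062 to 0.10 for JQ-1 added to enzalutamide and -0.025 to 0.14 in the JQ-1 by enzalutamide interaction, and ABCG1 was -0.050 to 0.13 for JQ-1.

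Same-numbered replicates showed no consistent pairing. In none of 21 pairs of groups did all 3 correlations exceed 0.1. The mean correlations ran from -0.0911 to 0.117, and in 3 pairs every sample was closest to its own number. For vehicle and enzalutamide in stripped serum, 2 of the 3 correlations exceeded 0.1, the highest being 0.226. There the replicate block raised the calls over all genes from 808 to 1323. For DHT against enzalutamide it lowered them from 2122 to 1692. Among the transporters, the replicate block gave 5 calls in place of 6 for MR49F against V16D, ABCC1 being lost (-0.12, adjusted p = 0.0507, edgeR). Counts of 1 to 45 reads per library in stripped serum limit ABCA1, and 7 to 15 limit ABCC4 with vehicle or JQ-1.

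Over all genes, the calls behind the percentages also depended on the tool. For enzalutamide they numbered 5276 in V16D and 3489 by DESeq2, 1181 in MR49F in full serum and 527 to 2558 under the alternatives, and 808 in stripped serum and 366 to 4673. They were 4122 and 2720 to 10054 for DHT, 2122 and 1157 to 7633 for DHT against enzalutamide, 5284 and 3543 to 10533 for JQ-1, 4902 and 3223 to 10407 for JQ-1 added to enzalutamide, and 5891 and 4342 to 10721 for JQ-1 added to DHT. For the interactions they were 104 and 56 to 2333 (JQ-1 by enzalutamide), 1428 and 723 to 6506 (JQ-1 by DHT), 1613 and 1453 to 4527 (serum), and 1006 and 710 to 1210 (cell line). Leaving out 1 library gave 406 (enzalutamide replicate 3) to 2533 (vehicle replicate 1) for enzalutamide in MR49F in full serum and 414 (vehicle replicate 1) to 910 (enzalutamide replicate 3) in stripped serum. It gave 61 (enzalutamide with JQ-1 replicate 2) to 293 (enzalutamide replicate 3) for the JQ-1 by enzalutamide interaction and 742 to 1579 for the cell line interaction.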
